A study of Mus musculus with 4 samples.

Results

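The RapGAPs of the SIPA1 family and the postsynaptic scaffold proteins of the DLGAP family were examined in hippocampal RNA-seq of Lsd1 knock-in (KI) mice. The genes were chosen by name: Sipa1, Sipa1l1, Sipa1l2 and Sipa1l3 for the first family, and Dlgap1, Dlgap2, Dlgap3 and Dlgap4 for the second. Earlier results of these data were known when they were chosen. All 8 were matched to 1 Ensembl gene each, of 26328 genes listed in at least 1 sample. The 4 samples were hippocampi of male C57BL/6 mice, 2 from wild-type (WT) animals and 2 from KI animals, sequenced as poly(A) RNA. In the KI line the serine of LSD1 that PKCα phosphorylates is replaced by alanine, so LSD1, a histone demethylase, is still made but cannot be phosphorylated there. Littermates of 8 to 15 weeks were used for the behavioral work, and the age of the sequenced animals is not given separately. Whether each library came from 1 animal is not stated, so the p-values measure only the spread between these samples.

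Rap1 and Rap2 are small GTPases that act as switches in dendritic spines, where active Rap weakens synapses and shrinks spines. RapGAPs switch Rap off. The SIPA1-like proteins, also called SPAR proteins, carry a RapGAP domain and a PDZ domain. SPAR itself, encoded by Sipa1l1, binds actin and the scaffold PSD-95, and enlarges spines when it is abundant. The DLGAP proteins, also called GKAP or SAPAP, link PSD-95 to the Shank proteins and so join the receptor layer of the postsynaptic density to its deeper, actin-facing layer. SPAR and the DLGAP proteins therefore lie on the PSD-95 scaffold of excitatory synapses, which are the main synapses of the hippocampus.

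Expression was given as RPKM, reads scaled to exon length and to mapped reads. Levels can then be compared between genes as far as the exon lengths used are right. KI and WT were compared with limma on log2(RPKM + 1) over the 18436 genes that reached 0.5 RPKM in 2 or more of the samples, with p-values adjusted across that whole set. The depth worked out from whole-read steps in the values was 13.41, 8.83, 14.38 and 14.95 (in units of 1e6 mapped reads) in WT replicates 1 and 2 and KI replicates 1 and 2. The 7 hippocampal markers summed to 309.2 and 312.8 RPKM in WT and to 284.3 and 300.3 RPKM in KI, and 0 of them were at 0 in any sample. Kdm1a, which encodes LSD1, had means of 11.4 ± 0.32 (WT) and 11.1 ± 0.14 RPKM (KI; SD, n = 2 each). The KI allele changes 1 residue, so this level does not check the genotype labels.

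The start-site sequences of the 2 members that were lowest in KI relative to WT are shown first, together with 1 of a member whose level was nearly the same in both groups. RefSeq start-site windows of 250 bases before to 50 bases after the start (GRCm38.p6, the same build as the mm10 of the files) were found for 7 of the 8 genes, as 10 windows in all. Dlgap2 had no entry. In the first sequence capitals mark CCAAT, the box bound by the factor NF-Y, a motif picked after the sequence had been seen. In the other two capitals mark CACGTG, the E-box bound by CLOCK and BMAL1, with which phosphorylated LSD1 is known to interact.
Sipa1l2, minus strand, chr8:125569814-125570113: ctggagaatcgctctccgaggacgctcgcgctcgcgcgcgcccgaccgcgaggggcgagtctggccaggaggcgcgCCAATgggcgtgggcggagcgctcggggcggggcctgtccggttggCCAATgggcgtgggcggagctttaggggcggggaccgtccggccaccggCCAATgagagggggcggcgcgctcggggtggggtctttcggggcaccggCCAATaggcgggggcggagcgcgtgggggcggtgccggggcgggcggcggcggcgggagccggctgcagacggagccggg
Sipa1l3, minus strand, chr7:29505411-29505710: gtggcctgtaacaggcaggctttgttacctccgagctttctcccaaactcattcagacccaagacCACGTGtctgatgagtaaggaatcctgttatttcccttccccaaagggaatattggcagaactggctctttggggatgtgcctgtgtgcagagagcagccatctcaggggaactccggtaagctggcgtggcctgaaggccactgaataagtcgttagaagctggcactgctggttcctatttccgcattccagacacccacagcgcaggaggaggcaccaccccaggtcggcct
Dlgap1, plus strand, chr17:70561497-70561796: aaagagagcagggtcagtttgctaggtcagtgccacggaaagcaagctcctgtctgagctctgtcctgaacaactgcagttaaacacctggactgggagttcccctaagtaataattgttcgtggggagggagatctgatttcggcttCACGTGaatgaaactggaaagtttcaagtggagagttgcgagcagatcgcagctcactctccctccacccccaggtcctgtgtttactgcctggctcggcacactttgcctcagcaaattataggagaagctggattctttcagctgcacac

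The Sipa1l2 window was 78.7% G and C and held 4 copies of CCAAT on the strand of the gene. CCAAT, read on both strands (ATTGG on the other), was present in 37.4% of the 32851 windows of the whole table and in 4 of the 10 windows of the members. At least 4 copies on the gene's strand were present in 0.265% of all windows. That limit of copies and strand was taken from the Sipa1l2 window, so the 0.265% is a description and no test. CACGTG, which reads the same on both strands, was present in 7.15% of all windows and in 2 of the 10 windows of the members. In Sipa1l3 it began 185 bases before the start and in the second start of Dlgap1 102 bases before it. A match of letters is no evidence of binding. The Sipa1l3 window lay 13.2 kb inside the gene as GENCODE M21 annotates it, with 50 of its 300 bases exonic. The Dlgap1 window shown, the one of that gene that held CACGTG, lay 592.7 kb inside its gene, with 245 bases exonic. The other window of Dlgap1, at the annotated start, held 0 copies of CACGTG. The other window of Sipa1l2, 77.0 kb inside the gene, held 0 copies of either motif.

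The plot of levels by sample shows the order of the members in the hippocampus. Sipa1l1 was the highest, at a mean of 64.9 RPKM over the 4 samples, and was above every other member in all 4 samples. Dlgap3, Dlgap1 and Dlgap4 followed at 46.6, 38.1 and 34.5 RPKM, and their ranges over the 4 samples did not overlap. Sipa1l3 was at 17.3 RPKM, also apart from its neighbours in the order. Dlgap2 and Sipa1l2 came next at 13.2 and 13.0 RPKM with overlapping ranges, so their order cannot be told. Sipa1, the founding RapGAP of its family and best known from blood cells, was the lowest at 4.32 RPKM. These ranges show the spread between samples and not any error in the exon lengths.

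**Figure D1:**
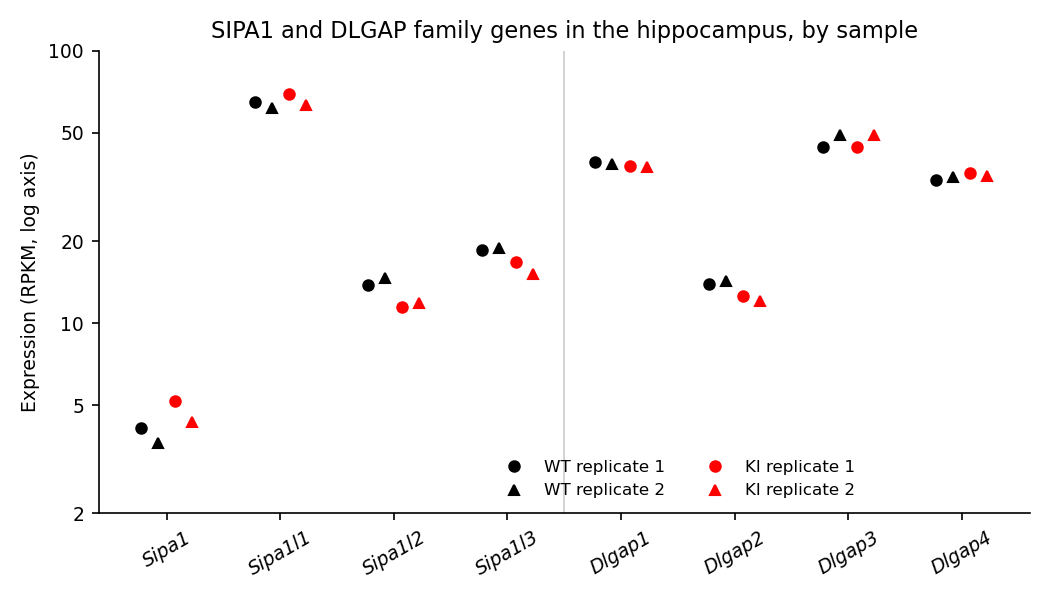
Expression of the 8 genes (RPKM, log axis) in WT (black) and KI (red) hippocampus, with a circle for replicate 1 and a triangle for replicate 2 of each group. Sipa1l1 lies between 61.8 and 69.6 RPKM and Sipa1 between 3.63 and 5.18 RPKM, and the red points of Sipa1l2, Sipa1l3 and Dlgap2 lie below the black ones.

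Sipa1l2, Sipa1l3 and Dlgap2 were below the WT range in each KI sample, with ratios of the means of 0.825, 0.848 and 0.878, and none of these differences passed the test once adjusted over all genes. Across the 8 members, 0 were called by limma (1.2-fold or more, adjusted p below 0.1), the background being 0.0% of the 18436 genes in either direction. With 2 samples per group and 0 genes called in all, this does not show that the members were unchanged. At an unadjusted limma p under 0.05, 3 members were lower in KI, against 3.33% of all genes tested, and 0 were higher, against 6.3%. Both KI values lay below both WT values in 4 members, against 18.1% of all genes, and above them in 2, against 24.0%. Because the members were chosen with earlier results of these data known, these counts are a description and no test of the families. The median log2 fold change of the members was -0.02, beside 0.01 for all genes tested. For single values an exact permutation test of 2 against 2 cannot go below p = 0.333. In tissue RNA, fewer cells of a type and less RNA per cell cannot be told apart.

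Among the SIPA1 family, Sipa1l2 (SPAR2; ENSMUSG00000001995, chromosome 8, 125418063 to 125569808 in GRCm38, minus strand) had the largest log2 fold change on the log2(RPKM + 1) scale. With a pseudocount of 0.1 it was -0.28, and that of Sipa1 was 0.29, so the order of these genes depends on the pseudocount. It was at 13.8 and 14.7 RPKM in WT replicates 1 and 2 and at 11.5 and 11.9 RPKM in KI replicates 1 and 2. The KI samples were the lower pair, and each group's values were close to each other, with a coefficient of variation of 4.6% in WT and 2.6% in KI. The values rested on about 1775, 1247, 1593 and 1716 reads, for which counting alone gives a variation of 2.4% to 2.8%. The ratio of the KI mean to the WT mean was 0.825, and the log2 fold change was -0.26 (standard error 0.06, 95% interval -0.42 to -0.09, unadjusted p = 0.0108 and adjusted p = 0.413 from limma). It stayed between -0.30 and -0.21 with any 1 sample removed.

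Sipa1l3 (SPAR3; ENSMUSG00000030583, chromosome 7, 29320372 to 29518641, minus strand), which besides neurons is known from the lens, was at 18.6 and 18.8 RPKM in WT and at 16.7 and 15.1 RPKM in KI. The WT values were nearly equal and the KI values further apart, both below WT. The log2 fold change was -0.23 (standard error 0.07, 95% interval -0.41 to -0.05, adjusted p = 0.478 from limma), and removing 1 sample at a time gave -0.30 to -0.16.

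Sipa1l1 (SPAR, the founding spine RapGAP; ENSMUSG00000042700, chromosome 12, 82169320 to 82451786, plus strand) was at 65.0 and 61.8 RPKM in WT and at 69.6 and 63.2 RPKM in KI. The groups overlapped, KI replicate 2 lying between the WT samples. Its log2 fold change was 0.06, with a 95% interval of -0.11 to 0.24. On about 6984 to 12819 reads per sample, counting contributes no more than 1.2% to its variation.

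Sipa1 (ENSMUSG00000056917, chromosome 19, 5651185 to 5663707, minus strand) was the member with the fewest reads, between 142 and 329 per sample. It was at 4.12 and 3.63 RPKM in WT and at 5.18 and 4.34 RPKM in KI. Both KI values were above both WT values, but KI replicate 2 exceeded WT replicate 1 by less than the gap between the KI samples. The log2 fold change was 0.24 (standard error 0.11, 95% interval -0.06 to 0.53, adjusted p = 0.567 from limma), which on the log2(RPKM + 1) scale understates the 1.23 ratio of the means slightly, and it ranged from 0.13 to 0.34 as samples were left out. The 5 microglial markers, of a blood-lineage cell that could carry Sipa1, summed to 54.6 and 54.2 RPKM in WT and to 57.4 and 52.8 RPKM in KI, with 3 of 5 higher and 1 lower in both KI samples (24.0% and 18.1% of all genes) and 0 at 0. The 5 endothelial markers summed to 31.8 and 37.2 RPKM in WT and to 35.6 and 35.8 RPKM in KI, with 2 higher, 2 lower and 0 at 0. Their part in the Sipa1 difference was not tested.

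In the DLGAP family, Dlgap2 (ENSMUSG00000047495, chromosome 8, 14095865 to 14847680, plus strand), the least abundant of the 4, was at 13.9 and 14.3 RPKM in WT and at 12.6 and 12.1 RPKM in KI. The pairs did not overlap, and the step between them was wider than the gap within either. The log2 fold change was -0.18 (standard error 0.06, 95% interval -0.32 to -0.03, adjusted p = 0.49 from limma), on about 774 to 1150 reads per sample. It lay between -0.20 and -0.15 with each sample left out.

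Dlgap1 (GKAP itself; ENSMUSG00000003279, chromosome 17, 69969073 to 70821413, plus strand) was at 39.0 and 38.3 RPKM in WT and at 37.7 and 37.4 RPKM in KI. The KI values were again the lower ones, but the ratio of the means was 0.971 and the log2 fold change -0.04 (95% interval -0.16 to 0.08, adjusted p = 0.803 from limma). Dlgap4 (ENSMUSG00000061689, chromosome 2, 156613705 to 156764363, plus strand) went the other way by a similar amount, with 33.5 and 34.4 RPKM in WT, 35.7 and 34.6 RPKM in KI and a log2 fold change of 0.05 (95% interval -0.08 to 0.18, adjusted p = 0.773 from limma). Of the Dlgap4 exons, 24 bases are shared with a gene on the opposite strand, 4930405A21Rik, which was below 0.5 RPKM in all 4 samples, and the kit is not stated to keep the strand, so reads of the pair cannot be told apart there.

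Dlgap3 (SAPAP3, whose loss in mice causes compulsive grooming through striatal synapses; ENSMUSG00000042388, chromosome 4, 127169204 to 127237022, plus strand) was at 44.3 and 48.9 RPKM in WT and at 44.2 and 49.1 RPKM in KI. The groups covered the same range and the means were both 46.6 RPKM. Its variation within each group, 7.0% in WT and 7.4% in KI, was larger than the 1.7% to 2.3% that counting gives, and in both groups replicate 2 was the higher sample. The log2 fold change was 0.00 (95% interval -0.21 to 0.21), and it took either sign, from -0.07 to 0.08, as samples were left out. Dlgap3 is on the chromosome of Kdm1a, 9.31 Mb from it.

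**Figure D2:**
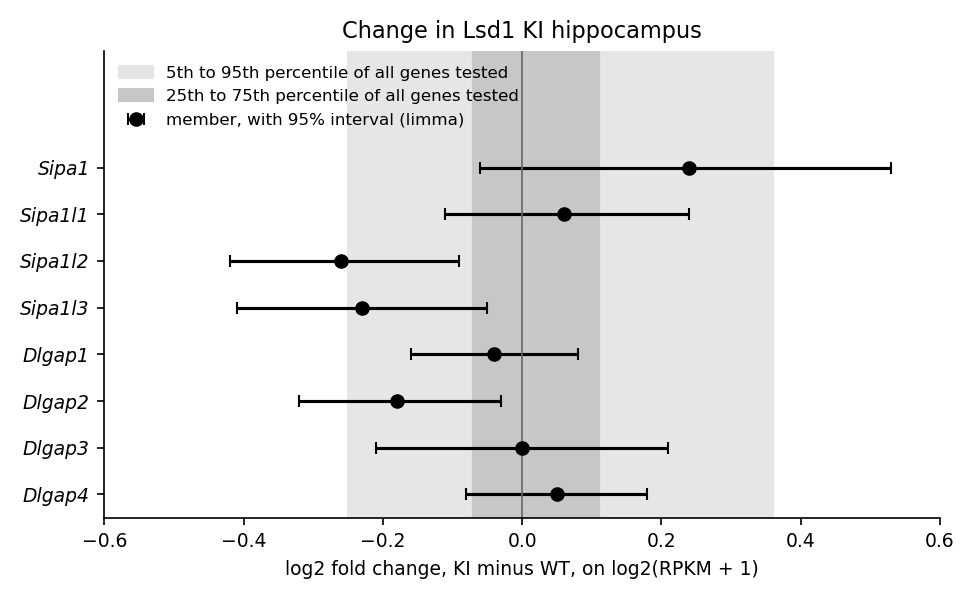
Log2 fold change (KI minus WT, on log2(RPKM + 1)) of each gene with its 95% interval from limma, over the 5th to 95th percentile (light grey, -0.25 to 0.36) and the 25th to 75th percentile (dark grey, -0.07 to 0.11) of all 18436 genes tested. The intervals of Sipa1l2, Sipa1l3 and Dlgap2 lie below 0 before any adjustment for the number of genes, and those of the other 5 genes include 0.

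The make-up of each family was then compared, since a share within a sample does not move with the scaling of that sample. The summed RPKM of the SIPA1 family was 101.6 and 98.9 in WT and 103.0 and 94.5 in KI, which overlapped. Within that sum, Sipa1l2 and Sipa1l3 took smaller shares in both KI samples and Sipa1l1 and Sipa1 larger ones. The shares restate the RPKM values given above, and the RPKM of Sipa1l1 itself overlapped between the groups. For single genes, both KI values lay below both WT values in 18.1% of all genes tested and above them in 24.0%. No such background was worked out for shares or ratios. Sipa1l3 made up 18.3% and 19.0% of the family in WT and 16.2% and 15.9% in KI. Sipa1l2 made up 13.6% and 14.8% in WT and 11.2% and 12.6% in KI. Sipa1l1 made up 64.0% and 62.4% in WT and 67.6% and 66.8% in KI. These shares sum to 100% and are not independent of each other, and each had an exact permutation p of 0.333 (two-sided, n = 2 each), the smallest the design allows. Against Sipa1l1 alone, the ratio of Sipa1l3 was 0.286 and 0.305 in WT and 0.240 and 0.239 in KI, and that of Sipa1l2 was 0.212 and 0.238 in WT and 0.165 and 0.189 in KI.

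The DLGAP family summed to 130.7 and 135.8 RPKM in WT and to 130.3 and 133.2 RPKM in KI. Dlgap2 took 10.7% and 10.5% of this sum in WT and 9.69% and 9.10% in KI, and Dlgap4 took 25.6% and 25.3% in WT and 27.4% and 26.0% in KI. For both, the pairs did not overlap (exact permutation p = 0.333, two-sided, n = 2 each). The RPKM values of single genes separated downwards in 18.1% and upwards in 24.0% of all genes tested. The shares of Dlgap1 and Dlgap3 overlapped between the groups, at 28.1% to 29.9% and 33.9% to 36.8% over the 4 samples.

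**Figure D3:**
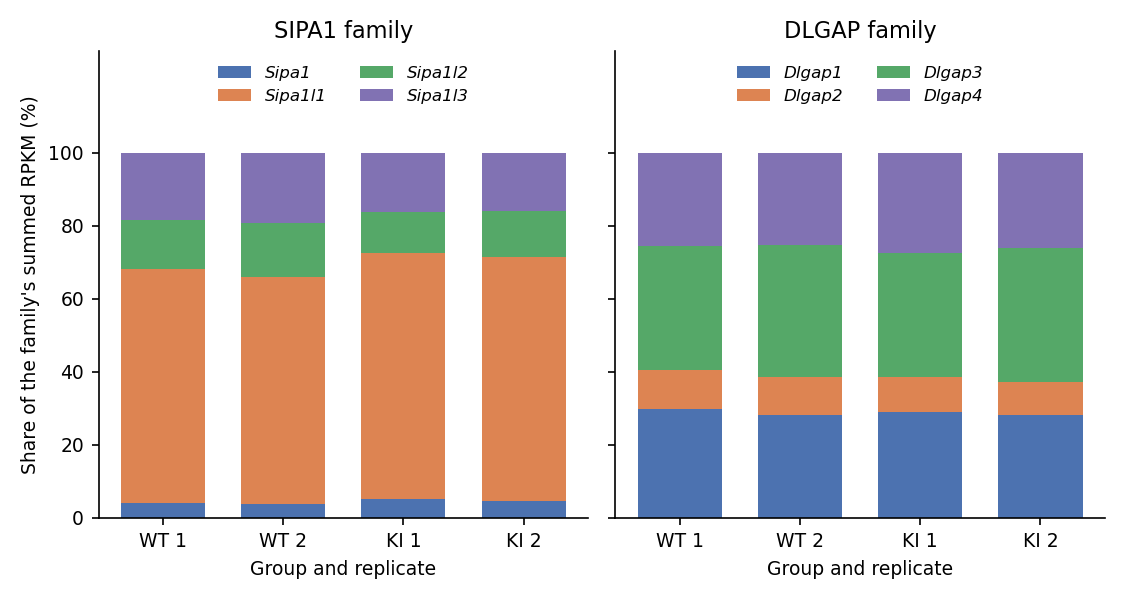
Share of each gene in the summed RPKM of its family, in percent, as stacked bars for each of the 4 samples (WT 1, WT 2, KI 1, KI 2), with the SIPA1 family on the left and the DLGAP family on the right. Sipa1l1 fills 62.4% to 67.6% of the left bars, and the Sipa1l3 segment is 18.3% and 19.0% in WT against 16.2% and 15.9% in KI.

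Markers of hippocampal subfields and neighbouring regions were read in the same samples. None was called by limma, and counts of markers outside the WT range in both KI samples stand against 18.1% (lower) and 24.0% (higher) of all genes tested. Prox1, a transcription factor that defines dentate granule cells, was at 17.3 and 16.9 RPKM in WT and at 10.2 and 13.1 RPKM in KI. C1ql2, another granule cell gene, was at 41.8 and 44.0 RPKM in WT and at 30.7 and 34.2 RPKM in KI. Both had lower values in both KI samples, as had Neurod2, at 49.0 and 51.7 RPKM in WT and 43.6 and 45.4 RPKM in KI, so that 3 of the 7 hippocampal markers lay below the WT range and 0 above it in both. The remaining hippocampal markers overlapped between the groups. Fibcd1 was at 33.5 and 34.8 RPKM in WT and 33.5 and 34.9 RPKM in KI. Zbtb20 was at 8.45 and 8.0 RPKM in WT and 8.19 and 8.15 RPKM in KI. Neurod6 was at 116.9 and 116.3 RPKM in WT and 129.5 and 113.5 RPKM in KI. Wfs1, a marker of CA1 pyramidal cells, differed most within a group, with 28.6 RPKM in KI replicate 1 and 50.9 RPKM in KI replicate 2. The 5 neocortex markers summed to 46.2 and 49.2 RPKM in WT and to 52.5 and 51.0 RPKM in KI, with 3 of 5 higher and 0 lower in both KI samples. The 6 striatum markers summed to 40.8 and 38.6 RPKM in WT and to 45.3 and 42.4 RPKM in KI, with 3 higher and 1 lower. No marker of these lists was at 0 in any sample. The part of these cell types and regions in the lower Sipa1l2, Sipa1l3 and Dlgap2 values was not tested.

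Oligodendrocyte markers summed to 677.2 and 784.6 RPKM in WT and to 845.4 and 643.5 RPKM in KI, astrocyte markers to 189.0 and 192.4 RPKM in WT and to 187.5 and 194.9 RPKM in KI, and the 4 thalamus markers to 26.1 and 20.5 RPKM in WT and to 27.3 and 24.6 RPKM in KI. In all 3 lists the sums overlapped, and 0 markers were at 0. In both KI samples 0 of the 5 oligodendrocyte markers lay outside the WT range, while 2 astrocyte markers lay above and 1 below it. Of the 3 thalamus markers that passed the filter, 1 lay above the WT range and 1, Lef1, below it in both KI samples. The remaining thalamus marker, Tcf7l2, was too low to be tested. It was also lower in both KI samples, at 0.418 and 0.454 RPKM in WT and 0.35 and 0.375 RPKM in KI. The thalamus marker above the WT range was Prkcd, at 7.88 and 6.48 RPKM in WT and 12.4 and 9.07 RPKM in KI. These markers were named after their values were seen.

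The genes that act on or with the members were taken from 5 lists, of which 30 genes are reported: the Rap GTPases themselves, other RapGAPs, the exchange factors (RapGEFs) that switch Rap on, the binding and degradation partners of SPAR, and the partners of the DLGAP proteins. All 30 were tested and 0 were called by limma, while 3 were higher and 1 lower at an unadjusted p under 0.05, beside 6.3% and 3.33% of all genes tested. These counts are near that background. The median log2 fold change of the 30 genes was -0.03, with 10 above and 20 below 0.

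Of the 5 Rap genes, 0 had an unadjusted limma p under 0.05, and their log2 fold changes ran from -0.14 in Rap1a to 0.03 in Rap1b. Rap1a was at 16.1 and 15.5 RPKM in WT and at 13.8 and 14.7 RPKM in KI. Rap1b, the more abundant Rap1, was at 27.7 and 28.5 RPKM in WT and at 28.4 and 29.1 RPKM in KI.

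Of the 3 other RapGAPs reported, 2 (Garnl3 and Rap1gap) were higher at an unadjusted limma p under 0.05 and 0 were lower. Garnl3 had the highest fold change of these 3, with 2.55 and 2.58 RPKM in WT and 3.56 and 3.31 RPKM in KI (log2 fold change 0.32, adjusted p = 0.456 from limma). Rap1gap2 had the lowest, with 23.4 and 25.5 RPKM in WT and 24.0 and 22.8 RPKM in KI, which overlapped (log2 fold change -0.06). The list held 4 genes, so these counts cover it in part.

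Of the 7 exchange factors, 1 was higher at an unadjusted p under 0.05. This was Rasgrp2, a calcium-responsive activator of Rap, at 1.16 and 1.21 RPKM in WT and 2.08 and 2.18 RPKM in KI (adjusted p = 0.34 from limma, log2 fold change 0.52). The ratio of its means was 1.8, which the log2(RPKM + 1) scale understates at this low level. Rapgef6 had the lowest fold change of that list, -0.12, with 3.40 and 3.33 RPKM in WT and 3.05 and 2.96 RPKM in KI.

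The SPAR partners included Plk2, the activity-induced kinase that marks SPAR for destruction, and Btrc, the ubiquitin ligase subunit that then recognises it. Btrc had the lowest fold change of the 5, with 22.0 and 24.3 RPKM in WT and 19.2 and 20.2 RPKM in KI (log2 fold change -0.22, unadjusted p = 0.0272 and adjusted p = 0.489 from limma). Lzts1, a postsynaptic density protein related to the linker between Shank and SPAR, had the highest fold change, with 10.2 and 9.93 RPKM in WT and 11.1 and 11.3 RPKM in KI (log2 fold change 0.14). Of the 10 DLGAP partners, which comprise the PSD-95 and Shank families, the dynein light chains and the ubiquitin ligase Trim3, 0 had an unadjusted limma p under 0.05. Their log2 fold changes lay between -0.09 in Dlg3, at 52.4 and 51.2 RPKM in WT and 46.6 and 50.7 RPKM in KI, and 0.11 in Dynll1, at 56.5 and 57.2 RPKM in WT and 59.4 and 63.6 RPKM in KI.

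**Figure D4:**
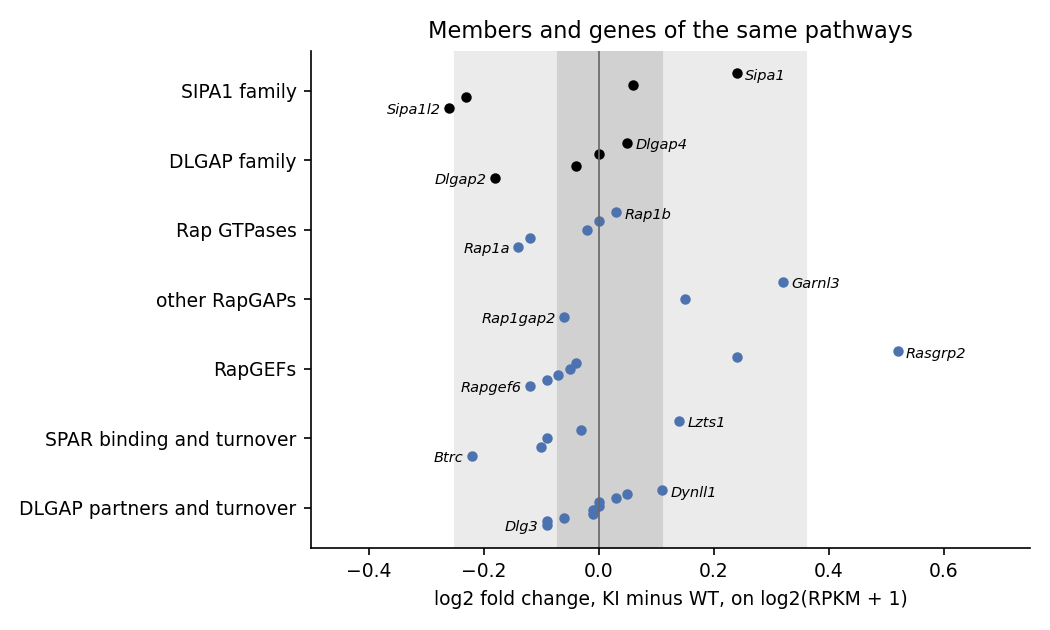
Log2 fold changes (KI minus WT, on log2(RPKM + 1)) of the 8 members (black, upper 2 rows) and of 30 genes of the 5 pathway lists (blue), with 1 point for each gene and the lowest and highest of each row named, over the percentiles of all genes tested (light grey 5th to 95th, dark grey 25th to 75th). The DLGAP partners span -0.09 to 0.11, while Rasgrp2 stands at 0.52.

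Among the 3 genes whose pattern over the 4 samples was most like that of Sipa1l2, the member with the largest change on the log2(RPKM + 1) scale, were Add2 and D130043K22Rik, with root-mean-square differences of 0.0069 and 0.0085 on the log2 scale after each gene was centred on its mean. Sipa1l2 itself varied by 0.13 on that measure. Add2, which encodes the actin-capping beta-adducin, was at 70.4 and 74.8 RPKM in WT and at 60.2 and 61.6 RPKM in KI. D130043K22Rik was at 9.06 and 9.60 RPKM in WT and at 7.45 and 7.67 RPKM in KI. In all, 207 genes lay within 0.05 of Sipa1l2, which with 4 samples is a description and no measure of shared control.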

How the data were processed

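Poly(A) RNA of 2 WT and 2 KI hippocampus samples was sequenced. The authors used GSNAP and mm10, kept pairs that mapped properly to 1 place, and deposited RPKM values per sample on the genes of Ensembl release 74, with no stated scaling between samples. The counting tool is not given in the sources used here. A gene absent from a file was set to 0. The authors used edgeR, which needs counts and was not used here. At its own thresholds that test did select differentially expressed genes, so the lack of calls here does not mean that no gene changed.

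Values were compared with limma 3.58.1 (R 4.3.3) on log2(RPKM + 1) for the 18436 genes that reached 0.5 RPKM in 2 or more samples. The variance was moderated along the mean, and p-values were adjusted by the Benjamini-Hochberg method. Genes were called at 1.2-fold or more and an adjusted p below 0.1. The code was tested on simulated data. Summaries used Python 3.11.15 with pandas 2.3.3 and numpy 2.4.6. Reads behind a value were worked out from whole-read steps with GENCODE M21 exon lengths (GRCm38), are approximate, and were never tested. Of the genes with up to 30 reads, 75.6% to 77.3% came out within 0.02 of a whole number. For Sipa1, Sipa1l1, Sipa1l2 and Dlgap1 the reads did not come out whole in every sample, so their read numbers and counting variation are rougher.

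The members and gene lists were chosen with earlier results of these data known. The genes named are the 8 members, the lowest and highest fold change of each pathway list, and the 3 genes most like the member with the largest change (Sipa1l2 at a pseudocount of 1, Sipa1 at 0.1). Of these lists, 1 RapGAP and 1 of the 3 most alike genes are not reported here, and the RapGAP is left out of the list counts. Alternatives were another pseudocount, no filter, quantile and median-ratio scaling, no trend, the replicate block, other thresholds, and leaving out each sample.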

Additional observations from a re-analysis of the deposited data

How the results depend on the processing

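In limma, 0 members were called under each of the alternatives run, and 0 genes overall in all of them but one. Without the mean-variance trend 20 genes were called (17 higher, 3 lower), none of them a member. With the replicate block the counts were 0 genes and 0 members. The deviations of same-numbered samples had a correlation of -0.025 across 18436 genes, so the numbers were not taken to pair the samples. The log2 fold change of Dlgap3, 0.00 as reported, was -0.02 with quantile normalization and -0.01 with median-ratio scaling. With each sample left out it ran from -0.07 to 0.08, and that of Sipa1l1 from -0.01 to 0.13, the only other change of sign. The remaining members kept their direction in every alternative, with Sipa1l2 between -0.30 and -0.21, and the smallest adjusted p of any member was 0.388, with median-ratio scaling. At an unadjusted p under 0.05 the number of members went from 3 to 2 with the block and without the trend, and to 0 without WT replicate 2, 1 without WT replicate 1, 2 without KI replicate 1 and 1 without KI replicate 2. These fits have 1 sample in an arm, which is assumed to vary like the other group. WT replicate 2 had the lowest depth, which limits Sipa1 most, at 142 reads.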
